A study of Arabidopsis thaliana x Arabidopsis arenosa and Arabidopsis suecica with 6 samples.

Results

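The genes described here are those encoded by the plastid genome, taken as every gene whose code starts with ATCG. They were 60 of the 17885 genes in the deposited tables, beside 25 mitochondrial and 17800 nuclear genes. Rosette leaf mRNA had been sequenced, as poly(A) RNA, from allotetraploid Arabidopsis plants whose nuclei combine genomes of 2 species, A. thaliana (written T) and A. arenosa (written A). For each gene and library the authors gave the RPKM, reads scaled to transcript length and library size, of a T version and of an A version. The T share used below is the T value as a percentage of the sum of both.

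The F1 crosses TATT and TTTA held 3 T genomes and 1 A genome (class T3A1). TATT had AlloF8 named first and A. thaliana second, and TTTA had the same parents in the opposite order. The F1 crosses TAAA and AATA held 1 T genome and 3 A genomes (class T1A3). TAAA had AlloF8 named first and A. arenosa second, and AATA had A. arenosa first and AlloF8 second. AlloF8 is an allotetraploid resynthesized from both species, in its generation F8, and A. suecica is the natural allotetraploid of the same parentage. All were sampled before bolting, at 6 to 7 weeks, from plants grown with 16 h of light at 22 °C and 8 h of dark at 20 °C. Each F1 cross had 3 libraries, and A. suecica and AlloF8 had 2 each, 16 in all. Which parent was the mother is not stated in the labels, and nothing says that replicates came from separate plants. The p-values thus measure only the spread between these libraries, which the fit adjusts toward that of other genes with a similar mean value.

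Plastids are the organelles of photosynthesis, and they keep a small genome of their own with genes for photosystem subunits, ribosomal proteins and parts of an RNA polymerase. In most flowering plants, Arabidopsis included, they pass to the offspring through the egg cell and not through the pollen, so that a plant carries the plastids of its seed parent. A cross is written by convention with the seed parent first. A. suecica carries plastids of A. thaliana origin. Tails of poly(A) mark plastid RNA for decay, unlike nuclear mRNA, so the RPKM of a plastid gene in a poly(A) library does not stand for its level in the leaf. Leaf RNA also cannot tell fewer cells of one type from less RNA per cell, nor fewer plastids from less RNA per plastid.

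The deposited tables and the reference annotation used here pair only 6 of the 60 codes with a product, so most members are given by code alone. The reference annotation lists 85 protein-coding, 37 tRNA and 7 rRNA genes on the plastid genome. Of the 60 members, 13 were listed in all 6 tables, 51 reached a total of 5 RPKM in at least 1 library, and 3 (ATCG00380, ATCG00820 and ATCG01120) were listed at 0 alone. The tables listed 20 members for TATT, 14 for TTTA, 36 for TAAA, 36 for AATA, 60 for A. suecica and 45 for AlloF8. RPKM gives no read numbers, so the depth behind a value is unknown. The lowest total above 0 of any gene in any library was 2.0 RPKM, so a 0 may stand for a lower total and not for absence.

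The first libraries of the F1 crosses held few plastid values. Members with a value above 0 numbered 2, 14 and 20 in TATT replicates 1, 2 and 3, and 2, 11 and 14 in those of TTTA. They numbered 2, 8 and 34 in TAAA replicates 1, 2 and 3, and 12, 26 and 35 in those of AATA. A. suecica had 35 and 54, and AlloF8 had 43 and 35. The plot of plastid genes detected and of their share of expression shows this by library. Replicate 1 of TATT, TTTA and TAAA had 2 plastid values each, so most shares given for single members of those crosses come from replicates 2 and 3. The nuclear genes with a value above 0 numbered 13746 to 15427 per library and showed no such gap. All 8 leaf markers were in the tables, with a summed RPKM of 8700 to 29500 per library, and none of the 5 flower markers or of the 3 root markers that could be matched was listed. Of 4 markers of leaf senescence 3 were in the tables, with a summed RPKM of 12.1 to 232 per library, and their part in the results was not tested.

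**Figure D1:**
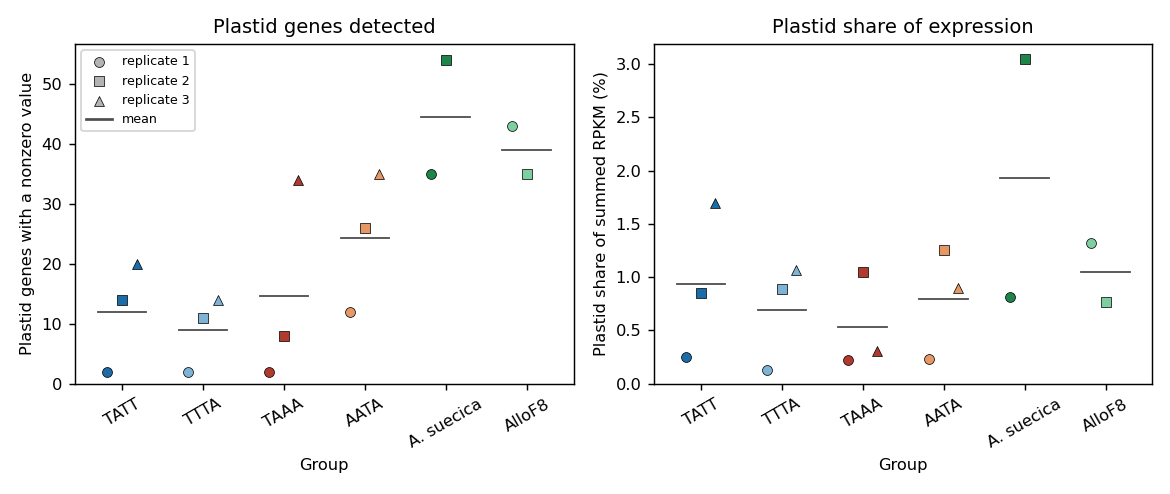
Number of plastid genes with a nonzero value (left) and summed plastid RPKM as a percentage of the summed RPKM of all genes (right), for each library of the 6 groups on the horizontal axes. Symbols give the replicate and lines the group mean; the replicate 1 libraries of TATT, TTTA and TAAA hold 2 plastid genes each, and A. suecica replicate 2 holds the most, 54 genes and 3.04% of RPKM.

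Plastid genes made up 0.932% ± 0.724 of the summed RPKM in TATT, 0.695% ± 0.496 in TTTA, 0.528% ± 0.454 in TAAA and 0.796% ± 0.521 in AATA (SD, n = 3 libraries each). They made up 1.93% ± 1.58 in A. suecica and 1.04% ± 0.391 in AlloF8 (SD, n = 2 each). The libraries of 1 group spread widely, in A. suecica from 0.812% to 3.04%, and no test was run on these percentages. A large part of the plastid RPKM came from 3 members, ATCG00950, ATCG01180 and ATCG01210, which together held 43.6% of it in TAAA replicate 3 and more in every other library, up to 100% in replicate 1 of TATT and of TAAA. The annotation used here gives no product for these 3 codes. Whether they encode proteins or are tRNA or rRNA genes is thus not given, and plastid RPKM need not stand for mRNA.

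The T share of the plastid genes was far below that of the nuclear genes in AATA and above it in A. suecica, AlloF8 and replicates 2 and 3 of TAAA. Over members with a total of at least 5 RPKM, the median T share was 46.95% and 60.9% in TAAA replicates 2 and 3, where the nuclear median was 22.1% and 23.1%. In AATA it was 7.94%, 3.75% and 3.53%, beside nuclear medians of 22.6%, 22.2% and 23.3%. Both crosses hold 1 T genome and 3 A genomes, and their nuclear medians lay within the same narrow range.

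In the T3A1 crosses the plastid median lay near the nuclear one. It was 77.00% and 77.9% in TATT replicates 2 and 3, beside nuclear medians of 74.01% and 73.9%. In TTTA replicates 2 and 3 it was 72.2% and 80.3%, beside nuclear medians of 73.97% and 73.98%. The replicate 1 libraries of TATT, TTTA and TAAA each rested on 2 members. In TATT and TAAA these were ATCG00950 and ATCG01180, with median shares of 0.171% and 0.150%, and in TTTA they were ATCG00480 at 99.8% and ATCG01180 at 0.171%. In A. suecica the plastid median was 66.9% and 66.2%, beside nuclear medians of 48.2% and 48.1%. AlloF8 had plastid medians of 66.96% and 65.6%, beside nuclear medians of 47.9% and 47.99%.

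**Figure D2:**
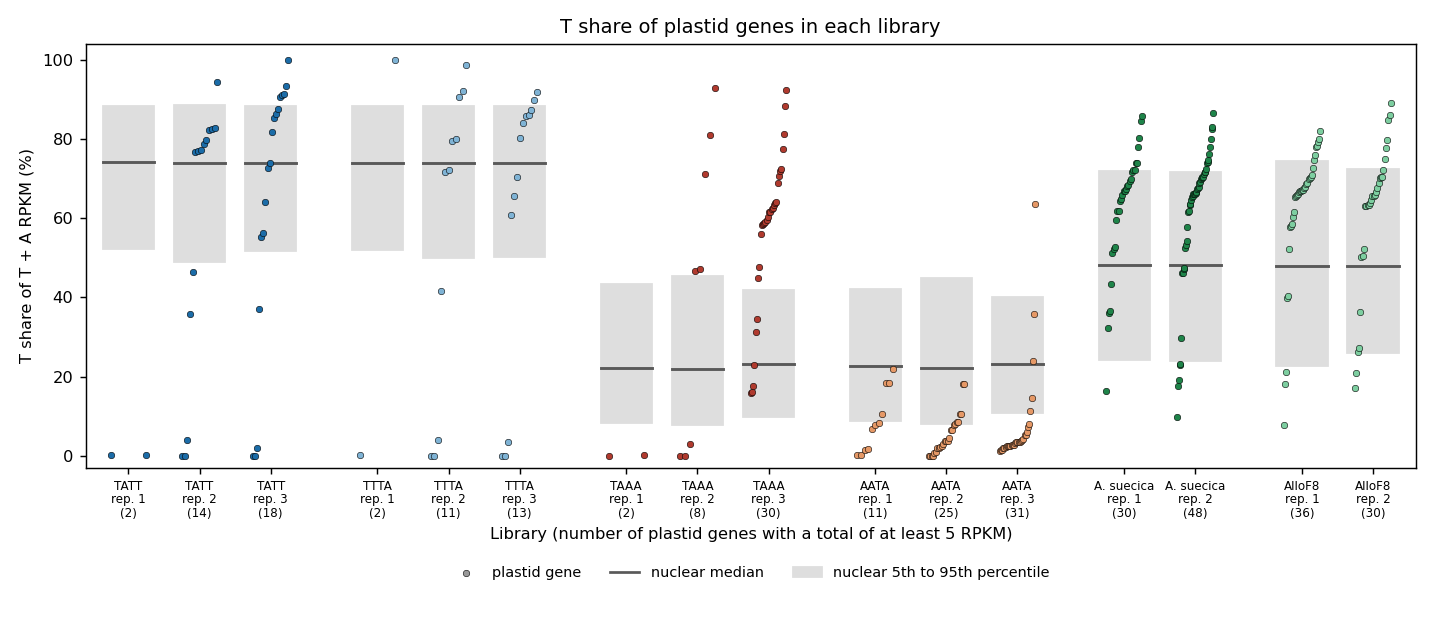
T share of T + A RPKM (vertical axis, %) of every plastid gene with a total of at least 5 RPKM in each library (horizontal axis; the number of genes is in parentheses, points are spread sideways in order of their share). Grey lines and bands are the median and the 5th to 95th percentile of nuclear genes; 26 of 31 plastid genes lie below the band in AATA replicate 3 and 24 of 30 above it in TAAA replicate 3.

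Single members could be placed against the nuclear genes of the same library. In TAAA replicate 3, 24 of 30 members had a T share above the nuclear 95th percentile of 41.8% and none lay below the 5th. In TAAA replicate 2, 5 of 8 lay above that percentile and 3 (ATCG00330, ATCG00950 and ATCG01180) below the 5th. In AATA replicates 1, 2 and 3, 7 of 11, 18 of 25 and 26 of 31 members lay below the nuclear 5th percentile of 8.92%, 8.08% and 10.96%. One member lay above the 95th percentile in these AATA libraries, ATCG01210 in replicate 3. In A. suecica 8 of 30 and 12 of 48 members lay above the nuclear 95th percentile and 1 and 5 below the 5th. In AlloF8 7 of 36 and 6 of 30 lay above and 3 and 2 below. In replicates 2 and 3 of TATT, 1 of 14 and 5 of 18 lay above and 5 and 4 below, and in those of TTTA 3 of 11 and 2 of 13 lay above and 4 and 3 below.

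Gene by gene, the T to A ratio of a member was also set against the nuclear median of the same library, with limma over all genes and all 16 libraries (Benjamini-Hochberg adjusted p under 0.05). In AATA 20 of 25 tested members had a lower ratio than the nuclear median and none a higher one, where 53.6% of all genes tested were called, 24.8% lower and 28.8% higher. The lowest called value was that of ATCG00020, -4.32 ± 0.97 (SE), and the one nearest to the nuclear median that of ATCG00540, -0.88 ± 0.23 (SE). The 5 not called were ATCG00120, ATCG00190, ATCG00430, ATCG00950 and ATCG01180. TAAA had 5 of 8 members higher, where 30.9% of all genes were, and 1 lower, where 26.2% were (57.1% in either direction). The 5 were ATCG00020, ATCG00470, ATCG00480, ATCG00530 and ATCG00680, and the lower one was ATCG00330. ATCG00950 and ATCG01180 lay further below, at -8.28 ± 3.66 (SE) and -8.17 ± 11.4 (SE), and were not called. Members pass this filter only with a value in 2 libraries, so these counts leave out the members seen in 1 TAAA library. Without TAAA replicate 3, 2 members could be tested and none was called. Leaving out AATA replicate 2 or 3 left 8 of 12 and 9 of 11 members lower.

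In A. suecica 15 of 31 members were above the nuclear median and 1 below, where 25.4% and 20.9% of all genes were (46.3% in all). AlloF8 had 15 of 32 members above and 2 below, where 24.3% and 20.3% of all genes were (44.6% in all). In TATT 1 of 14 members was above and 3 below, where 25.5% and 27.6% of all genes were (53.2% in all). In TTTA 2 of 11 were above and 3 below, where 25.7% and 27.9% of all genes were (53.6% in all). The members called below were the same in TATT and TTTA, namely ATCG00330, ATCG00680 and ATCG00950. ATCG01180 lay about as far below as ATCG00950, at -11.5 ± 7.81 (SE) in TATT and -11.5 ± 9.07 (SE) in TTTA. It was not called at these large SEs, which does not show a share near the nuclear median. ATCG00330 was called lower in all 6 groups. Without TATT replicate 2 or 3, 1 of 2 tested members was called, lower, and without TTTA replicate 2 or 3 1 of 2 was called, higher. Without A. suecica replicate 2 the calls there were 8 of 31, all higher, and without AlloF8 replicate 1 they were 11 of 32. With pairs at 0 kept as values, 3 of 40 members were called in A. suecica and 5 of 36 in AlloF8, all higher. In TAAA 23 of 31 were called, all higher, and in AATA 10 of 32, of which 9 were lower and 1 higher. A kept pair counts as equal T and A values, which lies above the nuclear median of TAAA and AATA. The counts of those crosses under this setting thus rest in part on pairs without a value and do not measure T share.

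TAAA and AATA differ in the order in which AlloF8 and A. arenosa are named, and 31 members had a total of at least 5 RPKM in at least 1 library of each. Of these, 27 had a higher T share in every TAAA library than in every AATA library, 3 overlapped and 1 was lower. Over all genes compared in this way, 8.51% were higher without overlap and 7.96% lower, but most of those genes had 3 TAAA libraries, where overlap is likelier. Of the 27 members, 22 had 1 TAAA library, which was replicate 3 for all of them. Some of these also had 1 AATA library, so that no overlap was possible. Among all genes with 1 TAAA library 43% were higher without overlap and 35.1% lower. The other 5 had 2 TAAA libraries, and among all genes with 2 such libraries 18.6% were higher without overlap and 14.1% lower. Within replicate 3, 26 of 27 members found in both libraries had the higher T share in TAAA, with medians of 60.2% in TAAA and 3.47% in AATA, where 47.1% of all genes were higher in TAAA. Within replicate 2, 7 of 8 did, with medians of 47.0% in TAAA and 0.889% in AATA, where 50% of all genes were higher. The members outside the 27 were ATCG01210, which was lower in TAAA, and ATCG00330, ATCG00950 and ATCG01180, which overlapped.

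The 22 members with 1 TAAA library, replicate 3, had T shares there of 15.9% to 88.2%, and their AATA shares ran from 0.00526% to 35.9%. ATCG00130 had the highest share in TAAA, 88.2%, against 10.6% and 2.78% in AATA. ATCG00120 had 77.5% in TAAA and 10.6% and 35.9% in AATA. Below 50% in TAAA as well were ATCG00140 at 34.6%, ATCG00670 at 15.9%, ATCG00710 at 22.9%, ATCG00730 at 45.02% and ATCG01020 at 16.2%. These 22 had no second TAAA library with at least 5 RPKM, so their difference has no spread within TAAA and was not tested.

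**Figure D3:**
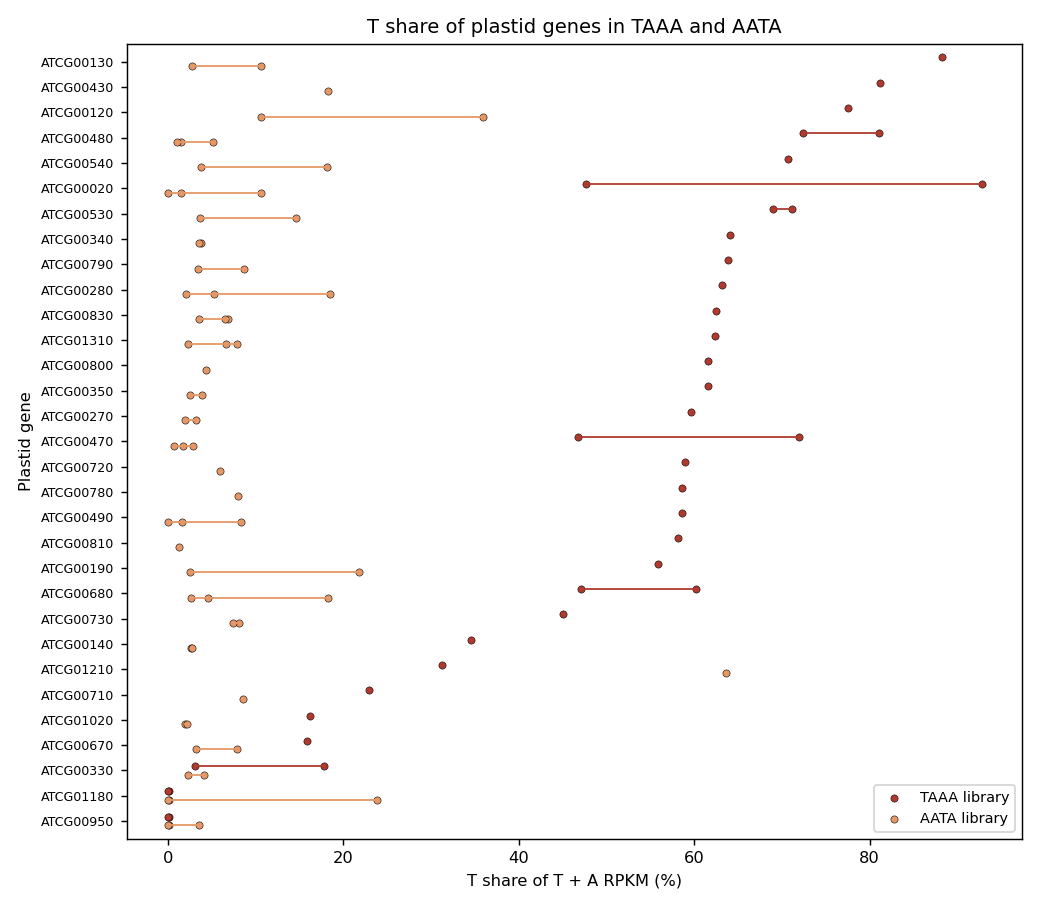
T share of T + A RPKM (horizontal axis, %) of the 31 plastid genes (vertical axis, by gene code) with a total of at least 5 RPKM in at least 1 library of TAAA and of AATA. Points are libraries and lines join the libraries of a cross; 27 genes have all TAAA points to the right of all AATA points, and ATCG01210 has them the other way round.

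In the fit over the 12 F1 libraries, with replicate number as a block, 8 members had enough values to be tested for the T to A ratio in TAAA against AATA. Of these, 3 were called, all higher in TAAA, where 0.0588% of all 11913 genes tested were called, 0.0504% higher and 0.00839% lower. ATCG00480 differed by 7.30 ± 0.72 (SE) on the log2 scale, ATCG00680 by 4.30 ± 0.34 (SE) and ATCG00530 by 3.56 ± 0.28 (SE) (limma, adjusted p = 0.00842 for each). ATCG00020 and ATCG00470 had larger or similar differences, 9.35 ± 1.30 (SE) and 6.38 ± 0.86 (SE), with an adjusted p of 0.0573 each. ATCG00330, ATCG00950 and ATCG01180 had differences of 1.24 ± 0.86 (SE), -1.37 ± 6.98 (SE) and -2.29 ± 5.67 (SE) and were not called. These fold values use log2(RPKM + 0.5), so they understate differences that rest on very low T values. The count was 3 without the block as well, with ATCG00470 in place of ATCG00680. It was 5 with a pseudocount of 1, 1 with pairs at 0 kept, 0 of 2 tested without TAAA replicate 3 and 1 of 6 without AATA replicate 2.

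ATCG00020 carried the largest difference between these crosses among the members tested. Its T and A values in TAAA were 356 and 27.6 RPKM in replicate 2 and 139 and 152 in replicate 3, and in AATA they were 1.27 and 10.6 RPKM in replicate 1, 4.68e-06 and 346 in replicate 2, and 2.28 and 148 in replicate 3. In TATT they were 263 and 15.7 RPKM in replicate 2 and 438 and 43.3 in replicate 3, and in TTTA 241 and 20.7 RPKM in replicate 2 and 269 and 39.6 in replicate 3. A. suecica had 139 and 132 RPKM in replicate 1 and 2555 and 719.8 in replicate 2, and AlloF8 had 814 and 577 RPKM in replicate 1 and 102 and 99.96 in replicate 2. The T version was thus the larger in both T3A1 crosses and in TAAA replicate 2, about level with A in TAAA replicate 3, and at most 2.28 RPKM in AATA. No value was listed above 0 in replicate 1 of TATT, TTTA and TAAA.

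ATCG00490 had a value in 1 TAAA library and so was not tested there. Its T and A values in TAAA were 62.2 and 43.9 RPKM in replicate 3, and in AATA 1.26 and 13.8 RPKM in replicate 1, 0.0104 and 199 in replicate 2, and 2.27 and 138 in replicate 3. They were 93.5 and 20.1 RPKM in replicate 2 and 277 and 48.2 in replicate 3 in TATT, and 103 and 26.8 RPKM in replicate 2 and 110.1 and 46.4 in replicate 3 in TTTA. The A version took almost the whole total in AATA and less than the T version in the other F1 crosses. Its shares in A. suecica and AlloF8 are given further on.

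ATCG00470 and ATCG00480 were measured in 13 and 14 of the 16 libraries, more than most members. For ATCG00480 the T and A values were 32.8 and 7.69 RPKM in replicate 2 and 50.5 and 19.2 in replicate 3 in TAAA, and 1.17 and 74.3 RPKM in replicate 1, 1.16 and 109 in replicate 2, and 10.3 and 187 in replicate 3 in AATA. In TATT they were 39.4 and 8.36 RPKM in replicate 2 and 90.9 and 8.74 in replicate 3, and in TTTA 30.4 and 0.0583 RPKM in replicate 1, 42.2 and 4.41 in replicate 2, and 80.6 and 9.16 in replicate 3. In A. suecica they were 46.4 and 17.9 RPKM in replicate 1 and 65.4 and 27.7 in replicate 2, and in AlloF8 47.1 and 14.9 RPKM in replicate 1 and 80.7 and 20.5 in replicate 2. The T share of this gene was 81.03% and 72.4% in TAAA and 1.56%, 1.05% and 5.20% in AATA, without overlap. All other groups lay between 70.2% and 99.8%, the highest in TTTA replicate 1.

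For ATCG00470 the T and A values were 19.9 and 22.6 RPKM in replicate 2 and 88.4 and 34.5 in replicate 3 in TAAA, and 1.18 and 67.7 RPKM in replicate 1, 1.14 and 156 in replicate 2, and 9.22 and 315 in replicate 3 in AATA. TATT had 71.97 and 21.98 RPKM in replicate 2 and 121 and 8.54 in replicate 3, and TTTA had 102 and 1.47 RPKM in replicate 2 and 148 and 13.3 in replicate 3. In A. suecica the values were 81.1 and 31.9 RPKM in replicate 1 and 91.4 and 38.7 in replicate 2, and in AlloF8 67.2 and 33.6 RPKM in replicate 1 and 151 and 58.2 in replicate 2. The T share of ATCG00470 was 1.71%, 0.726% and 2.85% in AATA, and its lowest share in any library of the other groups was 46.8%, in TAAA replicate 2.

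ATCG00680 had lower shares of T in the T3A1 crosses than the nuclear median. Its T share was 47.1% and 60.2% in TAAA and 18.3%, 4.64% and 2.65% in AATA. TATT had 46.6% and 55.3%, and TTTA had 41.6% and 60.8%. The shares in TAAA and in both T3A1 crosses overlapped, although the crosses differ in their number of T genomes.

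ATCG00280 was listed in 4 tables, those of TAAA, AATA, A. suecica and AlloF8. Its T and A values were 39.1 and 22.7 RPKM in replicate 3 in TAAA, and 1.28 and 5.67 RPKM in replicate 1, 1.19 and 56.7 in replicate 2, and 2.50 and 44.5 in replicate 3 in AATA. In A. suecica they were 39.3 and 21.9 RPKM in replicate 1 and 242 and 84.3 in replicate 2, and in AlloF8 119.6 and 45.3 RPKM in replicate 1 and 43.6 and 21.99 in replicate 2. ATCG00580 ranked high by its mean through a single library, A. suecica replicate 2, with T and A values of 29.6 and 125 RPKM.

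The members with a product in the annotation held the same order between TAAA and AATA where both could be compared. These product names come from notes of similarity on other genes and were not checked. ATCG00530 is annotated as a CemA-like proton extrusion protein, a protein of the plastid envelope. Its T and A values were 5.21 and 2.11 RPKM in replicate 2 and 4.56 and 2.05 in replicate 3 in TAAA, and 0.195 and 5.06 RPKM in replicate 2 and 0.799 and 4.68 in replicate 3 in AATA, at totals near the limit of 5 RPKM. ATCG00430 is named photosystem II reaction center protein G in such a note, which may not be its product. Its T share was 81.1% in TAAA and 18.2% and 7.89% in AATA. ATCG00670 encodes the plastid subunit ClpP of the Clp protease, which degrades proteins of the stroma. Its T share was 15.9% in TAAA and 7.94% and 3.25% in AATA, so this member lay on the A side in both crosses without overlap.

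The ribosomal members differed in how often they were seen. ATCG01310 encodes ribosomal protein L2 of the large subunit, and its T share was 62.4% in TAAA and 7.94%, 6.68% and 2.26% in AATA. Its totals followed those of ATCG00830, with a median difference of 1.36% over 12 libraries, so the 2 codes may share reads and are uncertain as separate values. The totals of this pair were not close in every library, and the largest difference was 66.1%. Totals were also close for ATCG00890 and ATCG01250, within 6.56% in 3 libraries, and for ATCG00340 and ATCG00350, within 10.5% in 9. Close totals alone do not show shared reads, and whether any pair shares reads was not tested. ATCG00950 and ATCG01210 were both above 0 in 3 libraries, where their totals differed by a median of 1.97% and at most by 39.1%. ATCG00750 encodes ribosomal protein S11 of the small subunit and had a T share of 79.9% in TAAA, at a total under 5 RPKM, 52.2% and 65.5% in A. suecica and 70.9% and 85.95% in AlloF8, with no value above 0 in AATA. ATCG00660, for ribosomal protein L20, was above 0 in 1 library, A. suecica replicate 2, with a T share of 69.9%.

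T values were low in AATA, above all in replicates 1 and 2. Of members with a total of at least 20 RPKM, 4 of 4 in AATA replicate 1 and 14 of 14 in replicate 2 had a T value under 2 RPKM, where 2.11% and 2.40% of nuclear genes did. In replicate 1 these T values were 1.09 to 1.18 RPKM while totals ran from 68.9 to 650 RPKM. In replicate 2 none of them was above 1.23 RPKM, at totals of 26.6 to 4203 RPKM. AATA replicate 3 had 8 of 17 such members, with T values of 0.534 to 1.90 RPKM, where 1.05% of nuclear genes were under 2 RPKM. TAAA replicate 1 had 2 of 2 members under 2 RPKM and replicate 2 had 3 of 7, where 2.30% and 2.60% of nuclear genes were. TAAA replicate 3, A. suecica and AlloF8 had none. TATT replicates 1, 2 and 3 had 2 of 2, 3 of 10 and 3 of 14. Those of TTTA had 1 of 2, 3 of 8 and 3 of 9. Of nuclear genes 0.172% to 0.295% were under 2 RPKM in the libraries of TATT and TTTA. In TATT, TTTA and TAAA the members under 2 RPKM were ATCG00330, ATCG00950 and ATCG01180 alone. How the authors divided reads between the versions is not given in the sources used here, and whether a T value near 1 RPKM stands for T reads was not tested.

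**Figure D4:**
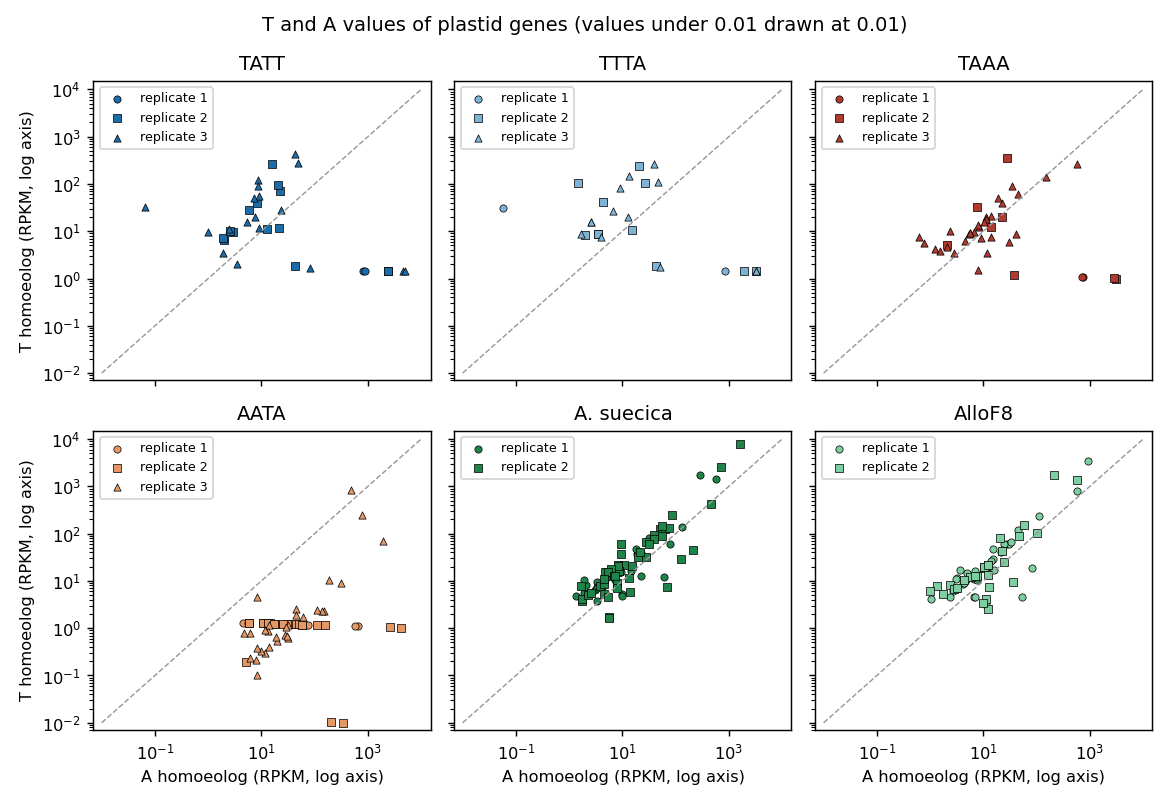
T value against A value (RPKM, both log axes) of plastid genes with a total of at least 5 RPKM, 1 panel per group, symbols by replicate. The dashed line marks equal values and values under 0.01 RPKM are drawn at 0.01; in AATA replicates 1 and 2 most T values lie in a band near 1 RPKM while A values run up to 4202 RPKM, and in A. suecica and AlloF8 most points follow the line on its T side.

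The most abundant members, for which the annotation used here gives no product, did not follow the others. For ATCG00950 the T and A values were 1.45 and 819.5 RPKM in replicate 1, 1.42 and 2354 in replicate 2, and 1.42 and 4581 in replicate 3 in TATT, and 1.44 and 1953 RPKM in replicate 2 and 1.41 and 3188 in replicate 3 in TTTA. They were 1.08 and 731 RPKM in replicate 1 and 0.9997 and 3132 in replicate 2 in TAAA, and 1.09 and 649 RPKM in replicate 1, 1.03 and 4202 in replicate 2, and 70.1 and 1898 in replicate 3 in AATA. In all F1 libraries with a value but AATA replicate 3, the T value was between 1.00 and 1.45 RPKM whatever the A value. In A. suecica they were 1696 and 283 RPKM in replicate 1, and in AlloF8 1708 and 212 RPKM in replicate 2, so this gene was on the T side in both groups with equal genomes and on the A side in every F1 cross.

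ATCG01180 had T and A values of 1.44 and 871 RPKM in replicate 1, 1.42 and 2353 in replicate 2, and 1.42 and 4873 in replicate 3 in TATT, and of 1.44 and 836 RPKM in replicate 1, 1.43 and 3289.7 in replicate 2, and 1.41 and 3188 in replicate 3 in TTTA. They were 1.08 and 707 RPKM in replicate 1 and 1.004 and 2794 in replicate 2 in TAAA, and 1.09 and 568 RPKM in replicate 1, 1.04 and 2642 in replicate 2, and 246 and 784 in replicate 3 in AATA. No value above 0 was listed in A. suecica or AlloF8. Its F1 values were close to those of ATCG00950 in several libraries, and both lay on the A side in TATT and TTTA, where most other members had a T share above 50%.

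ATCG01210 had the highest mean total of all members and values in 6 libraries. Its T and A values were 265 and 584 RPKM in replicate 3 in TAAA, and 843 and 482 RPKM in replicate 3 in AATA. In A. suecica they were 1455 and 562 RPKM in replicate 1 and 7976 and 1630.0 in replicate 2, and in AlloF8 3511 and 921 RPKM in replicate 1 and 1345 and 571 in replicate 2. This was the one member with a higher T share in AATA, 63.6%, than in TAAA, where it was 31.2%, each from 1 library. In AATA replicate 3 the T values of ATCG00950 and ATCG01180 were also higher than in the other F1 libraries.

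ATCG00330 was on the A side everywhere. Its T and A values were 1.84 and 43.5 RPKM in replicate 2 and 1.70 and 83.00 in replicate 3 in TATT, and 1.82 and 43.2 RPKM in replicate 2 and 1.79 and 50.04 in replicate 3 in TTTA. They were 1.19 and 37.6 RPKM in replicate 2 and 8.80 and 40.7 in replicate 3 in TAAA, and 1.20 and 49.97 RPKM in replicate 2 and 1.90 and 44.8 in replicate 3 in AATA. In A. suecica they were 11.9 and 60.3 RPKM in replicate 1 and 44.7 and 208 in replicate 2, and in AlloF8 18.5 and 83.7 RPKM in replicate 1 and 9.71 and 36.6 in replicate 2. The T share did not exceed 21.0% in any library.

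These members set any share summed over all plastid genes. The pooled T share of the 60 members was 7.09% ± 6.00 in TATT, 7.47% ± 3.31 in TTTA, 17.2% ± 24.1 in TAAA and 7.44% ± 11.8 in AATA (SD, n = 3 each). It was 74.8% ± 1.66 in A. suecica and 73.4% ± 2.55 in AlloF8 (SD, n = 2 each). Without ATCG00950, ATCG01180 and ATCG01210, a choice made after seeing the values, it was 79.7% ± 2.83 in TATT, 86.7% ± 11.4 in TTTA, 67.2% ± 17.1 in TAAA and 3.51% ± 1.49 in AATA, over the libraries that kept a value (2 in TATT and TAAA, 3 in TTTA and AATA). TTTA replicate 1 entered that mean through ATCG00480 alone, at 99.8%. It was then 61.0% ± 7.69 in A. suecica and 60.8% ± 0.573 in AlloF8. The pooled share of TATT, TTTA and TAAA thus changed sides with 3 genes, while the mean of AATA was below 10% on both counts. In AATA replicate 3 the pooled share over all members was 21.04%, and without that library the AATA mean was 0.643%.

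TATT and TTTA share their parents in opposite order, and their plastid shares overlapped for most members, as did the shares of most genes. Of 13 members with a total of at least 5 RPKM in both crosses, 11 overlapped, ATCG00490 was higher in every TATT library and ATCG00530 lower. Over all genes compared in this way, 8.6% were higher without overlap and 9.01% lower. In the fit none of 11 members tested differed in its ratio, and none of all 11778 genes did (limma, adjusted p under 0.05), while 345 genes had an unadjusted p under 0.05. The largest difference was that of ATCG00470, -1.85 ± 0.86 (SE), and ATCG00020 differed by 0.54 ± 1.30 (SE). Both parents of these crosses carry T genomes, and no test here shows the shares of TATT and TTTA to be equal.

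The reciprocal difference itself was compared between the classes, as TAAA minus AATA less TATT minus TTTA. It was called for 2 of 7 members tested, where 0.0258% of 11625 genes were called, 0.0172% higher and 0.0086% lower. The values were 8.17 ± 0.97 (SE) for ATCG00480 and 4.32 ± 0.48 (SE) for ATCG00680 (limma, adjusted p = 0.0402 each). ATCG00020 and ATCG00470 had differences of 8.81 ± 1.83 (SE) and 8.23 ± 1.21 (SE) with an adjusted p of 0.285 and 0.181. Neither call held without the replicate block, with an adjusted p of 0.0921 and 0.669, or without replicate 1 of any single cross, where the adjusted p was 0.0577 to 0.0597.

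Between the classes, 4 of 7 members had a higher ratio in T3A1 than in T1A3, where 99.6% of all genes were higher, 0.0172% were lower, and the median difference was 2.92 on the log2 scale. The differences were 6.31 ± 0.92 (SE) for ATCG00020, 6.25 ± 0.61 (SE) for ATCG00470, 5.13 ± 0.49 (SE) for ATCG00480 and 2.005 ± 0.24 (SE) for ATCG00680 (limma, adjusted p of 8.80e-05 or less). ATCG00330, ATCG00950 and ATCG01180 had -0.60 ± 0.60 (SE), -1.09 ± 4.97 (SE) and -1.99 ± 3.70 (SE) and were not called (limma, adjusted p of 0.342 to 0.832). The class mean of T1A3 joins TAAA and AATA, in which most members lay on opposite sides of the nuclear median. With TATT replicate 2 or 3 or TAAA replicate 3 left out, none of 2 tested members was called, and with TTTA replicate 2 or 3 left out 1 of 2 was.

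Total plastid expression, the sum of T and A, was called for few members. In TAAA against AATA 2 of 8 members were lower and none higher, where 8.74% of all genes were called, 5.95% lower and 2.79% higher. ATCG00470 differed by -1.64 ± 0.28 (SE) (limma, adjusted p = 0.0287) and ATCG00480 by -1.48 ± 0.14 (SE) (adjusted p = 0.0140). Without the replicate block neither was called, with an adjusted p of 0.448 and 0.344, and the calls among all genes numbered 14 instead of 1041. Without replicate 1 of TAAA, or replicate 1 or 2 of AATA, 1 member was called, and without replicate 3 of either cross none was. In TATT against TTTA none of 11 members was called, and none of all genes was, while 435 of all genes had an unadjusted p under 0.05. In T3A1 against T1A3 1 of 7 members was called, ATCG00480 with -0.42 ± 0.10 (SE) (adjusted p = 0.0127), where 40.1% of all genes were, 22.1% lower and 18% higher. That call was lost without the block, with an adjusted p of 0.472. ATCG00480 had too few values to be tested there without replicate 2 or 3 of TATT or of TAAA.

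A. suecica and AlloF8 both have equal numbers of T and A genomes, and most of their plastid genes had a T share above 50%. Whether these shares and the intermediate ones in TAAA stand for plastid RNA of both species or for the division of reads was not tested. Of the 27 members with a total of at least 5 RPKM in all 4 libraries, 18 had a T share above 50% in all 4 and 1, ATCG00330, below 50% in all 4. The highest shares were those of ATCG00130, at 84.6% and 86.5% in A. suecica and 82.02% and 77.7% in AlloF8. ATCG00120 followed with 80.1% and 79.9% in A. suecica and 74.7% and 84.8% in AlloF8. The lowest single share was that of ATCG00720 in AlloF8 replicate 1, at 7.85%, while the same gene had 59.6% and 66.4% in A. suecica.

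**Figure D5:**
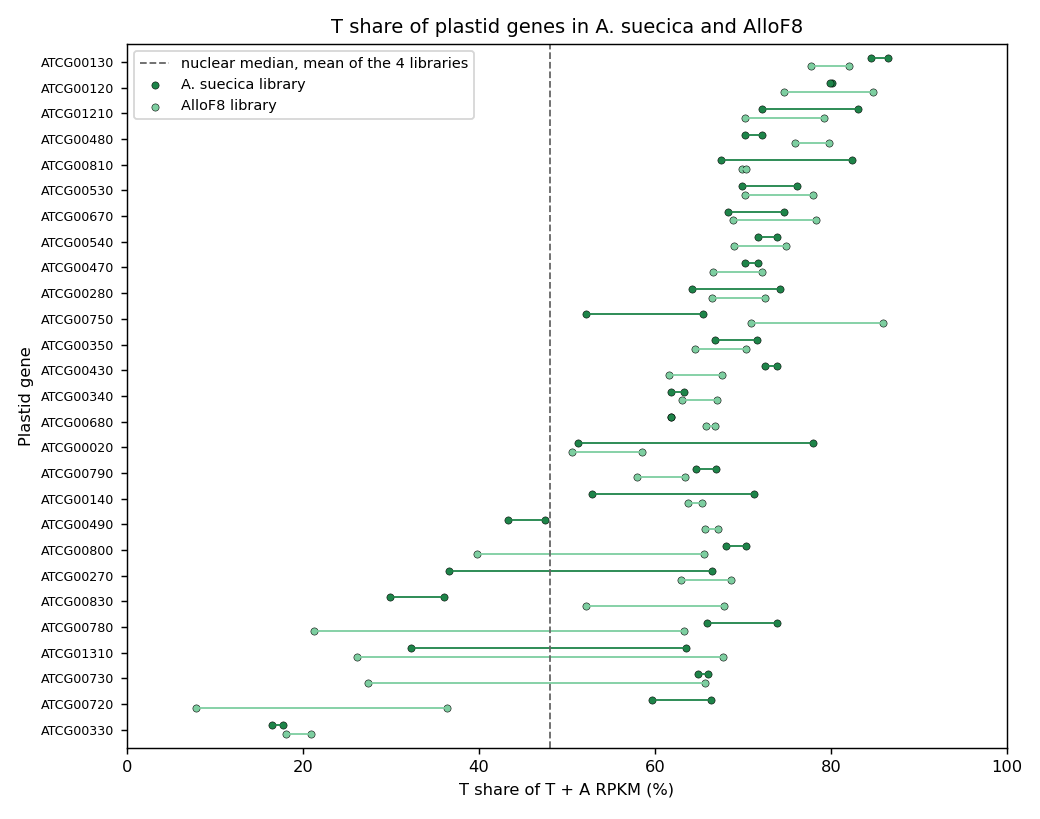
T share of T + A RPKM (horizontal axis, %) of the 27 plastid genes (vertical axis, by gene code) with a total of at least 5 RPKM in all 4 libraries of A. suecica and AlloF8. Points are libraries, lines join the libraries of a group and the dashed line is the mean nuclear median; 18 genes lie above 50% in all 4 libraries and ATCG00330 below 50% in all 4.

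For the T to A ratio 2 of 28 members were called between A. suecica and AlloF8, both lower in A. suecica, where 20.9% of all genes were called, 10.3% lower and 10.6% higher. ATCG00490 had T and A values of 59.98 and 78.4 RPKM in replicate 1 and 419 and 463 in replicate 2 in A. suecica, and of 232 and 113 RPKM in replicate 1 and 87.9 and 45.95 in replicate 2 in AlloF8. Its ratio differed by -1.24 ± 0.18 (SE) on the log2 scale (limma, adjusted p = 0.00977). ATCG00830 had a T share of 35.97% and 29.8% in A. suecica and 67.8% and 52.2% in AlloF8, a difference of -1.53 ± 0.32 (SE) (adjusted p = 0.0257). ATCG01310, which may share its reads, had 32.2% and 63.5% in A. suecica and 67.7% and 26.1% in AlloF8, a difference of 0.08 ± 0.88 (SE) (adjusted p = 0.963), so the call of ATCG00830 was not shared by its pair. The share of plastid members called was below that of all genes. Leaving out A. suecica replicate 1 or 2 left 0 and 1 calls, and leaving out AlloF8 replicate 1 or 2 gave 5 each. In total expression none of 28 members was called, where 4.96% of all genes were, 1.44% higher and 3.52% lower, with a median difference of -0.21 over all genes.

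Crosses that name AlloF8 first were also set side by side. In replicate 3, 4 of 15 members had a higher T share in TAAA than in TATT, with medians of 62.5% in TAAA and 85.2% in TATT. In replicate 2, 1 of 8 did, with medians of 47.0% in TAAA and 61.6% in TATT. The nuclear medians of the same libraries differed far more, at 23.1% and 22.1% in TAAA and 73.9% and 74.0% in TATT, in the order of replicate 3 and replicate 2. These differences were not tested.

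The mitochondrial genome, which is also inherited through the egg cell, gave few values. Of its 25 genes at most 4 were tested in any comparison. ATMG01080 and ATMG01390 were tested in TAAA against AATA, with ratio differences of 1.92 ± 0.61 and 0.89 ± 1.47 (SE), and neither was called. Against the nuclear median, ATMG01390 was lower in all 4 F1 crosses, with differences of -8.85 in TATT, -7.74 in TTTA, -3.21 in TAAA and -4.12 in AATA on the log2 scale. ATMG01080 was lower in TATT, TTTA and AATA, with -2.85, -2.61 and -1.77, and had 0.14 in TAAA, which was not called.

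Nuclear genes whose products act in the plastid were compared as lists. None of 19 nuclear genes for plastid transcription, 9 for plastid RNA processing or 38 for subunits of complexes shared with plastid products was called for the ratio between TAAA and AATA, or between TATT and TTTA. The median ratio difference between TAAA and AATA was 0.22, 0.07 and -0.10 over these lists on the log2 scale, where it was -0.01 over all genes. In total expression 8 of 19 transcription genes were lower in TAAA than in AATA and none higher, where 5.95% of all genes were lower and 2.79% higher. The median was -0.67, and 0.02 over all genes. They included PTAC12 (-0.82 ± 0.15, SE), FLN2 (-1.01 ± 0.19) and PRIN2 (-0.72 ± 0.15), whose products are part of or act with the plastid RNA polymerase. None of the 9 processing genes was called, with a median of -0.58. Of the 38 subunit genes 7 were lower and none higher, with a median of -0.43, among them PRPL35 (-0.70 ± 0.16), RPL12-A (-0.63 ± 0.15) and PRPL11 (-0.68 ± 0.16), which encode proteins of the large ribosomal subunit of the plastid. These list counts were not computed without the replicate block, where the calls among all genes fell to 14. No list had a call in total expression between TATT and TTTA. Between T3A1 and T1A3, 6 of 19 transcription genes were higher and 1 lower, 5 of 9 processing genes were higher, and 14 of 38 subunit genes were higher, where 18% of all genes were higher and 22.1% lower. The lower one was SIG5 (-1.89 ± 0.15), a sigma factor that directs the plastid RNA polymerase to promoters, and PTAC6 had the smallest adjusted p among the higher ones (1.31 ± 0.14).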

How the data were processed

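The authors deposited, for each library, RPKM values of a T and an A version of each gene, in separate columns per replicate and with no counts, so read depth is unknown and no counting interval is given. The build was TAIR 9, per the submitters' processing notes; the aligner, and how reads were divided between the versions, are not given in the sources used. Libraries came from an Illumina mRNA-seq kit with reads of 60 to 83 bp, per the labels' protocols. Transcripts (22890) were reduced to 17885 genes. The members and lists were chosen with earlier results of these data known.

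Ratios, log2((T + 0.5)/(A + 0.5)), and totals, log2(T + A + 0.5), were fitted with limma 3.58.1 in R 4.3.3 (empirical Bayes with trend, two-sided, Benjamini-Hochberg over all genes tested, threshold 0.05). Pairs with both versions at 0, which may stand for totals under 2.0 RPKM, were missing and did not enter mean totals. A gene needed a mean total of at least 5 RPKM and at least 2 values in each group compared. The 12 F1 libraries were fitted together with replicate number as a block, A. suecica and AlloF8 apart, and ratios against the nuclear median over all 16 libraries without a block. Same-numbered F1 libraries of different crosses had correlations of 0.15 to 0.70 in their deviations of totals, with a median of 0.48 over 18 pairs. Libraries with different numbers had -0.65 to 0.54, so the ranges overlapped. On simulated data for TAAA against AATA, with 11913 genes, 93% of genes changed by 2 and 100% of those changed by 4 on the log2 scale were recovered. The simulation changed 100 genes by each size in independent normal noise, and 5 unchanged genes were called. The fit to the real values called 7 genes, so its adjusted threshold was stricter. These percentages therefore do not carry over to the real comparison, where ATCG00020 was not called at a difference of 9.35.

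Genes given values in every library were the 8 of the highest mean total and the 3 highest and 3 lowest in ratio between TAAA and AATA; ATCG00680, ATCG00530, the members with a product and the members singled out in A. suecica and AlloF8 were added after their values were seen. Grouping the members by role was planned from gene symbols and could not be done, since 6 codes are paired with a product. Alternatives were other pseudocounts, filters, treatment of pairs at 0, the fit without the block, rescaling and leaving out each library. Figures were drawn with matplotlib 3.10.9.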

Additional observations from a re-analysis of the deposited data

Results flagged for a closer look

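The effect of naming AlloF8 first differed between the dosage classes for 2 plastid genes by a test of that difference. For ATCG00480 the ratio difference between TAAA and AATA exceeded that between TATT and TTTA by 8.17 on the log2 scale, and for ATCG00680 by 4.32 (limma, adjusted p = 0.0402 each). ATCG00680 had T shares of 47.1% and 60.2% in TAAA, and of 18.3%, 4.64% and 2.65% in AATA. Its adjusted p was 0.669 without the replicate block, 0.319 with a pseudocount of 0.1 and 0.0290 without AATA replicate 2. ATCG00480 had an adjusted p of 0.0921 without the block, 0.319 with a pseudocount of 0.1 and 0.00702 without AATA replicate 3. Both were tested and not called with pairs at 0 kept (adjusted p = 0.266 for ATCG00480 and 0.273 for ATCG00680) and without replicate 1 of any single cross (adjusted p 0.0577 to 0.0597). ATCG00480 had an adjusted p of 0.237 without AATA replicate 2, and ATCG00680 one of 0.0504 without AATA replicate 3. Without TTTA replicate 2 or 3, ATCG00480 had an adjusted p of 0.176 and 0.0605 and ATCG00680 could not be tested. Without TATT replicate 2 or 3, or without TAAA replicate 3, neither could be tested.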

How the results depend on the processing

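Same-numbered libraries had ratio correlations of -0.04 to 0.74 (median 0.22), so for ratios the replicate number is not shown to pair them. Without the replicate block the ratio calls in TAAA against AATA numbered 3 as before, those of the reciprocal difference by class 0, and the total calls 0 in TAAA against AATA and 0 in T3A1 against T1A3; no other count of calls changed its verdict. With pairs at 0 kept, calls numbered 1 for the ratio of TAAA against AATA, 9 for T3A1 against T1A3, 0 for the reciprocal difference, 0 for both F1 totals, 3 for the A. suecica total, and against the nuclear median 23 in TAAA, 10 in AATA, 3 in A. suecica and 5 in AlloF8. Kept pairs count as equal T and A values, above the nuclear median of TAAA and AATA, so the counts against it there do not measure T share. A pseudocount of 1 gave 5 ratio calls in TAAA against AATA, and one of 0.1 gave 0 for the reciprocal difference. A minimum of 20 RPKM left 1 ratio call in A. suecica against AlloF8, and 6 and 8 against the nuclear median in A. suecica and AlloF8. Means of the crosses gave 0 total calls in T3A1 against T1A3. The 2 alternatives that follow were chosen after seeing the data. Without the replicate 1 libraries, there were 0 calls for the reciprocal difference and for both F1 totals. Without ATCG00950, ATCG01180 and ATCG01210, the pooled T share was 79.7% in TATT, 86.7% in TTTA, 67.2% in TAAA, 61.0% in A. suecica and 60.8% in AlloF8, and the percentage of RPKM 0.112 in TATT, 0.0777 in TTTA, 0.0872 in TAAA, 0.154 in AATA, 0.736 in A. suecica and 0.363 in AlloF8. The mean of the library medians over genes was a T share of 51.7% ± 44.6 in TATT, 67.5% ± 15.7 in TTTA and 35.997% ± 31.8 in TAAA (SD, n = 3 each). Those means include replicate 1, which rests on 2 members in each of these crosses. The mean was 66.5% ± 0.469 in A. suecica and 66.3% ± 0.948 in AlloF8 (SD, n = 2 each). Without the most abundant gene the pooled share was 70.5% in A. suecica, 69.3% in AlloF8 and 3.19% in AATA, with 0.892% of RPKM in A. suecica and 0.508% in AlloF8; over genes in all 6 tables it was 72.5% in A. suecica and 70.5% in AlloF8, with 0.403% of RPKM in AlloF8. The causes were not tested.

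Leaving out 1 library at a time, ratio calls ranged from 0 to 4 in TAAA against AATA, 0 to 4 in T3A1 against T1A3, 0 to 5 in A. suecica against AlloF8 and 0 to 2 for the reciprocal difference. Against the nuclear median they ranged from 1 to 5 in TATT, 1 to 5 in TTTA, 0 to 7 in TAAA, 8 to 20 in AATA, 8 to 19 in A. suecica and 11 to 19 in AlloF8. Total calls ranged from 0 to 2 in TAAA against AATA, 0 to 1 in T3A1 against T1A3 and 0 to 1 in A. suecica against AlloF8. The balance of calls turned in 4 cases, 3 of them with 2 members left to test, so that the members called before were in part not tested. Without TATT replicate 2 the 1 total call in T3A1 was higher, without TTTA replicate 2 or 3 the 1 call against the nuclear median was higher, and without AlloF8 replicate 2, 3 of 5 ratio calls were higher. The uncalled ratio of ATCG00950 in TAAA against AATA was 1.66 with pairs at 0 kept and -2.96 to 0.11 with 1 library left out, the last without AATA replicate 3, and that of ATCG01180 was 0.41 with pairs at 0 kept. Without the replicate 2 libraries of all crosses, 1 member could be tested in TATT against TTTA, with 0 calls, and none elsewhere.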
